A study of Homo sapiens with 2 samples.

Results

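The genes described here encode the enzymes that make cholesterol and fatty acids, together with the proteins that switch those enzymes on and off. A fixed list of 37 gene symbols was matched to the gene column of the deposited transcript table, and all 37 were found among its 24124 genes. They were taken in 6 groups by role: 7 enzymes of the mevalonate and isoprenoid steps, 11 enzymes from squalene to cholesterol, 5 regulators, 4 enzymes of acetyl-CoA supply and fatty acid synthesis, 6 desaturases and elongases, and 4 genes of uptake, transport and activation. Expression was measured in SAS, a cell line from an oral cancer. One line stably carried the pLKO.AS2 vector with ASC, the inflammasome adaptor encoded by PYCARD, and the control line stably carried pLKO.AS2 alone. Both lines were kept in DMEM with 10% FBS, 200 µg/ml G418 and 2 µg/ml puromycin, so the medium and both selection drugs were common to the groups. Each group had 1 library, of 31426491 listed reads with ASC and 31289581 in the control. Whether either line was a clone or a pool is not given in the sources used here.

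Cholesterol is built from acetyl-CoA through mevalonate, farnesyl diphosphate, squalene and lanosterol. Fatty acids are built from the same acetyl-CoA by carboxylation and repeated condensation, and are then elongated and desaturated. Both programmes are driven by the SREBP transcription factors, made as membrane proteins of the endoplasmic reticulum. SCAP escorts them to the Golgi for cleavage when sterols are low, and the INSIG proteins hold SCAP back when sterols are high. Growing epithelial cancer cells use both pathways to make membrane.

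PYCARD stood at 266.5 RPKM with ASC against 1.36 RPKM in the control, the direction given by the labels. All 8 epithelial markers reached 1 RPKM, with a summed level of 3583 against 2817 RPKM. Most of that sum was KRT8 (1136 against 763 RPKM) and KRT18 (1363 against 967 RPKM). KRT14 (82.3 against 61.2 RPKM), KRT17 (406.6 against 334.7 RPKM) and CDH1 (82.6 against 65.6 RPKM) were also higher with ASC. EPCAM was level (193.48 against 193.35 RPKM), while KRT5 (311 against 421 RPKM) and KRT6A (8.13 against 11.5 RPKM) were lower with ASC. The defining leukocyte marker PTPRC stood at 0.0542 RPKM with ASC and was listed at 0 in the control, and of 7 leukocyte markers only CD68 reached 1 RPKM. No fibroblast marker and none of the 6 hepatocyte and adipocyte markers reached 1 RPKM, and of 5 endothelial markers only CDH5 did (2.23 against 1.23 RPKM). Values below are given as the ASC library against the control library. RPKM, reads scaled by transcript length and library depth, were summed over the transcripts of a gene. A log2 ratio without mention of reads was taken after adding 1 to each RPKM, and for ratios of reads a 95% interval is given that covers counting error only. With 1 library per group there is no spread between replicates and no test, so every difference below describes these 2 libraries. In bulk RNA, fewer cells expressing a gene and less RNA of it per cell cannot be told apart.

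The lipid synthesis genes as a whole differed little between the libraries. A gene was counted where one library exceeded the other by at least 25%, a log2 ratio of 0.32 in size. Of the 12471 genes that reached 1 RPKM in one library or both, 8.88% were counted as higher with ASC and 8.72% as lower, and of the 37 lipid genes 1 was higher (ACSS2) and 1 lower (FDFT1). The 25% mark was thus passed by 5.41% of the lipid genes, against 17.6% of all genes compared. On this scale, with 1 added to each RPKM, none of the 37 reached 1.5-fold, which 4.19% of all genes did (2.38% higher and 1.81% lower). ACSS2 came closest at 1.48-fold, and in plain RPKM it lay just past 1.5-fold. None of the 37 reached 2-fold on either scale, and 0.882% of all genes did with 1 added (0.617% higher and 0.265% lower). Log2 ratios lay above 0 for 17 of the 37, against 52.0% of all genes. The median log2 ratio was -0.01, with 0.01 over all genes compared, and the median size regardless of sign was 0.08, with 0.15 over all genes. Lipid genes are abundant, and all 37 reached 4 RPKM in both libraries. Among the 9033 genes that did so, the median size was 0.13 and 13.2% passed the 25% mark. Level was matched only in part, since the median in the control library was 17.0 RPKM for these genes and 25.4 RPKM for the 37.

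**Figure D1:**
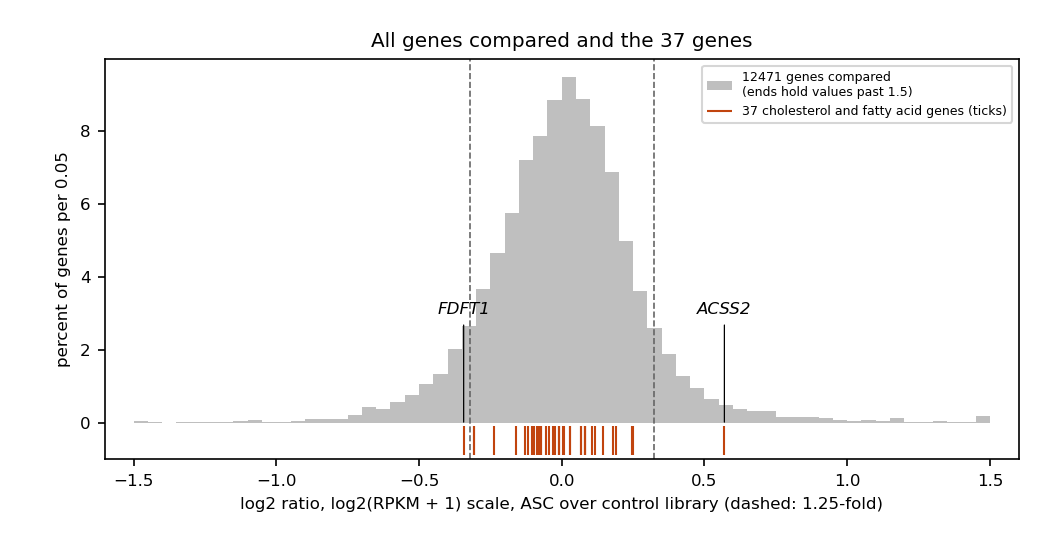
Distribution of the log2 ratio (ASC over control library, log2(RPKM + 1) scale) over the 12471 genes compared, as percent of genes per bin (the end bins hold values past 1.5), with a tick under the axis for each of the 37 lipid genes. The ticks lie between -0.34 (FDFT1) and 0.57 (ACSS2), and 35 of them lie between the dashed lines at the 25% mark.

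Depth set how finely each gene was measured, from 206 reads (TM7SF2, with ASC) to 52308 reads (SCD, in the control). The interval of the log2 ratio of reads ran from -0.07 to -0.04 for SCD but from -0.52 to 0.03 for TM7SF2, so differences near the 25% mark were not resolved for the lowest genes. Counting intervals of the depth-scaled reads lay above 0 for 11 lipid genes and below 0 for 10, where 28.5% and 27.0% of all genes did so. The 56.8% of lipid genes with an interval apart from 0 is near the 55.5% of all genes. An interval apart from 0 therefore marked about the same share of lipid genes as of any genes, and it says nothing of how far 2 libraries of 1 condition would differ.

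**Figure D2:**
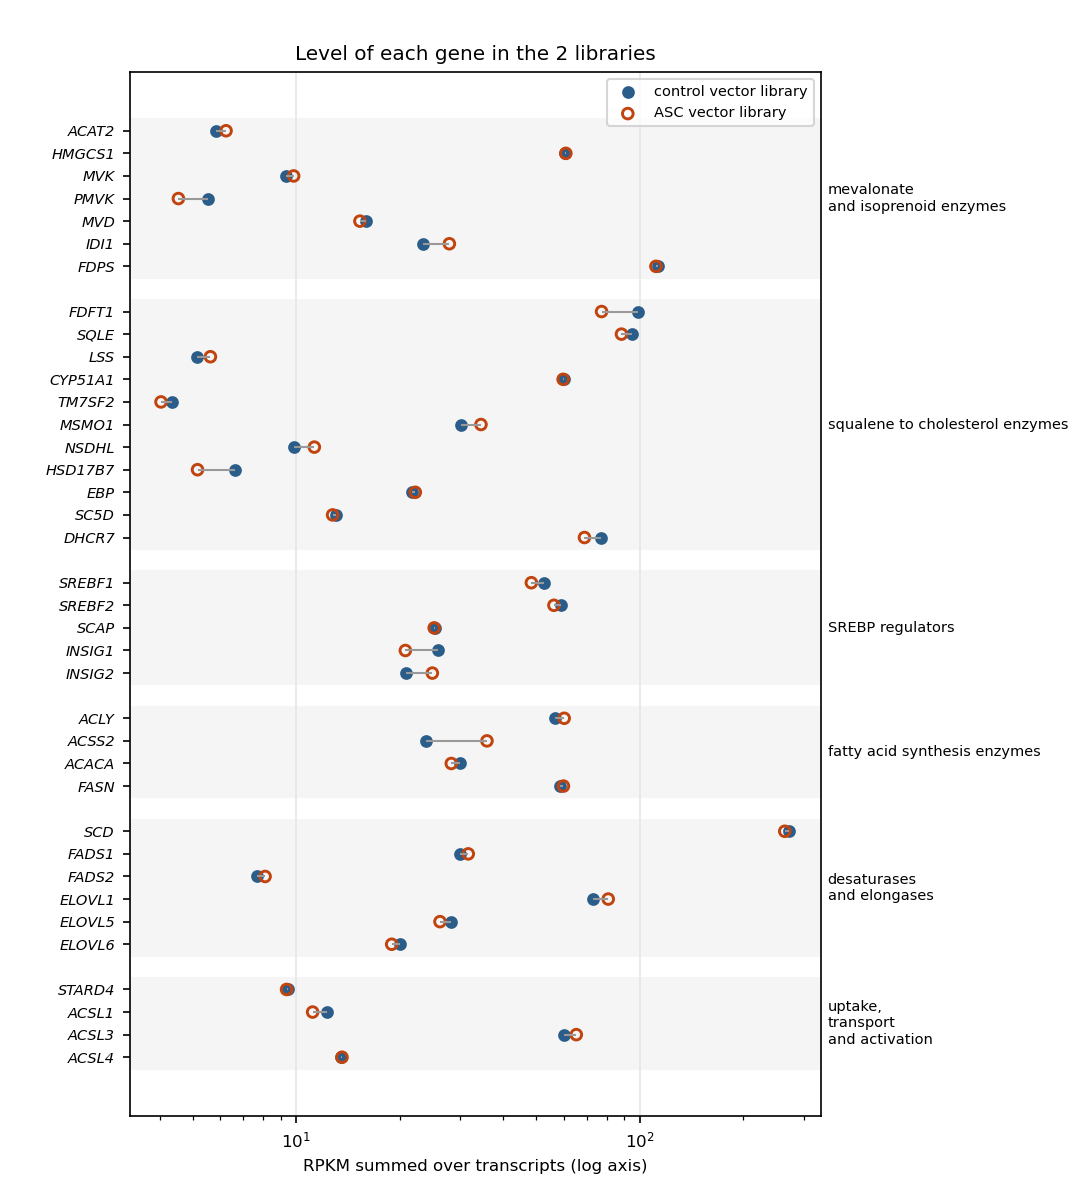
Level of each of the 37 genes in the control vector library (filled) and the ASC vector library (open), in RPKM on a log axis, grouped by role. Levels run from 4.35 RPKM (TM7SF2) to 272.6 RPKM (SCD) in the control library, and the pair of points lies widest apart for ACSS2.

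The mevalonate and isoprenoid enzymes stood at nearly the same summed level in both libraries, 236.2 against 233.9 RPKM, with a median log2 ratio of 0.01. FDPS, which makes farnesyl diphosphate, was the most abundant of them at 111.4 against 113.2 RPKM. HMGCS1, the HMG-CoA synthase and a classic target of the SREBP factors, stood at 60.9 against 60.7 RPKM (6458 against 6351 reads), and its log2 ratio of reads was 0.02 (interval -0.03 to 0.07). Within counting error, the libraries thus differed by at most a few percent for HMGCS1. Error in the assignment of its reads is not covered by this interval. IDI1, the isomerase that provides the second isoprenoid building block, stood at 27.9 against 23.3 RPKM, the largest log2 ratio of the group at 0.25. PMVK, the phosphomevalonate kinase, stood at 4.53 against 5.52 RPKM (207 against 253 reads, log2 ratio -0.24). These 2 differences point in opposite directions within 1 linear pathway. The mevalonate kinase gene MVK (9.82 against 9.33 RPKM) and the decarboxylase gene MVD (15.3 against 16.0 RPKM) lay closer to equality. The thiolase gene ACAT2 differed little in RPKM (6.24 against 5.84, log2 ratio 0.08) but more in reads, 546 against 455, where its log2 ratio was 0.26 (interval 0.07 to 0.44).

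The enzymes from squalene to cholesterol held the only sterol gene past the 25% mark. FDFT1, the squalene synthase that commits farnesyl diphosphate to sterols, stood at 77.4 against 98.5 RPKM, 1.27-fold lower with ASC, with 4696 against 6073 reads. Its log2 ratio was -0.34, and its log2 ratio of reads was -0.38 (interval -0.43 to -0.32). The level of FDFT1 relative to FDPS, which acts just before it, was 0.695 with ASC and 0.870 in the control. The 50 nearest compared genes on its chromosome had a median log2 ratio of -0.13, and with this subtracted FDFT1 came to -0.21, short of the 25% mark. The part of its neighbourhood in the difference was not tested further.

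Later sterol enzymes lay on both sides of equality. SQLE, the squalene epoxidase and a major control point of the pathway, stood at 88.4 against 95.1 RPKM (log2 ratio -0.10). LSS, which closes the rings to lanosterol, stood at 5.62 against 5.14 RPKM, and the lanosterol demethylase gene CYP51A1 at 59.8 against 60.2 RPKM. Of the enzymes that then remove methyl groups, MSMO1 stood at 34.5 against 30.1 RPKM and NSDHL at 11.3 against 9.85 RPKM, with log2 ratios of 0.19 and 0.18. HSD17B7, the reductase of the same demethylation step, was on the other side at 5.16 against 6.63 RPKM (255 against 350 reads), where the log2 ratio was -0.31 and that of reads -0.46 (interval -0.70 to -0.23). It lay just short of the 25% mark, but was 1.29-fold lower in plain RPKM, without the added 1. DHCR7, the last reductase of the pathway, stood at 69.0 against 77.2 RPKM (log2 ratio -0.16). EBP (22.2 against 21.8 RPKM) and SC5D (12.8 against 13.0 RPKM), the isomerase and desaturase that precede it, were nearly level. TM7SF2, a sterol reductase, was the lowest of the 37 at 4.04 against 4.35 RPKM. Summed over the 11 enzymes from squalene to cholesterol, FDFT1 included, the level was 390.2 against 421.9 RPKM, a ratio of 0.925. FDFT1 alone (77.4 against 98.5 RPKM) made up most of that difference. Of the 11 log2 ratios 7 lay below 0, where 5985 of the 12471 genes compared did so. Their median was -0.03, with 0.01 over all genes compared.

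**Figure D3:**
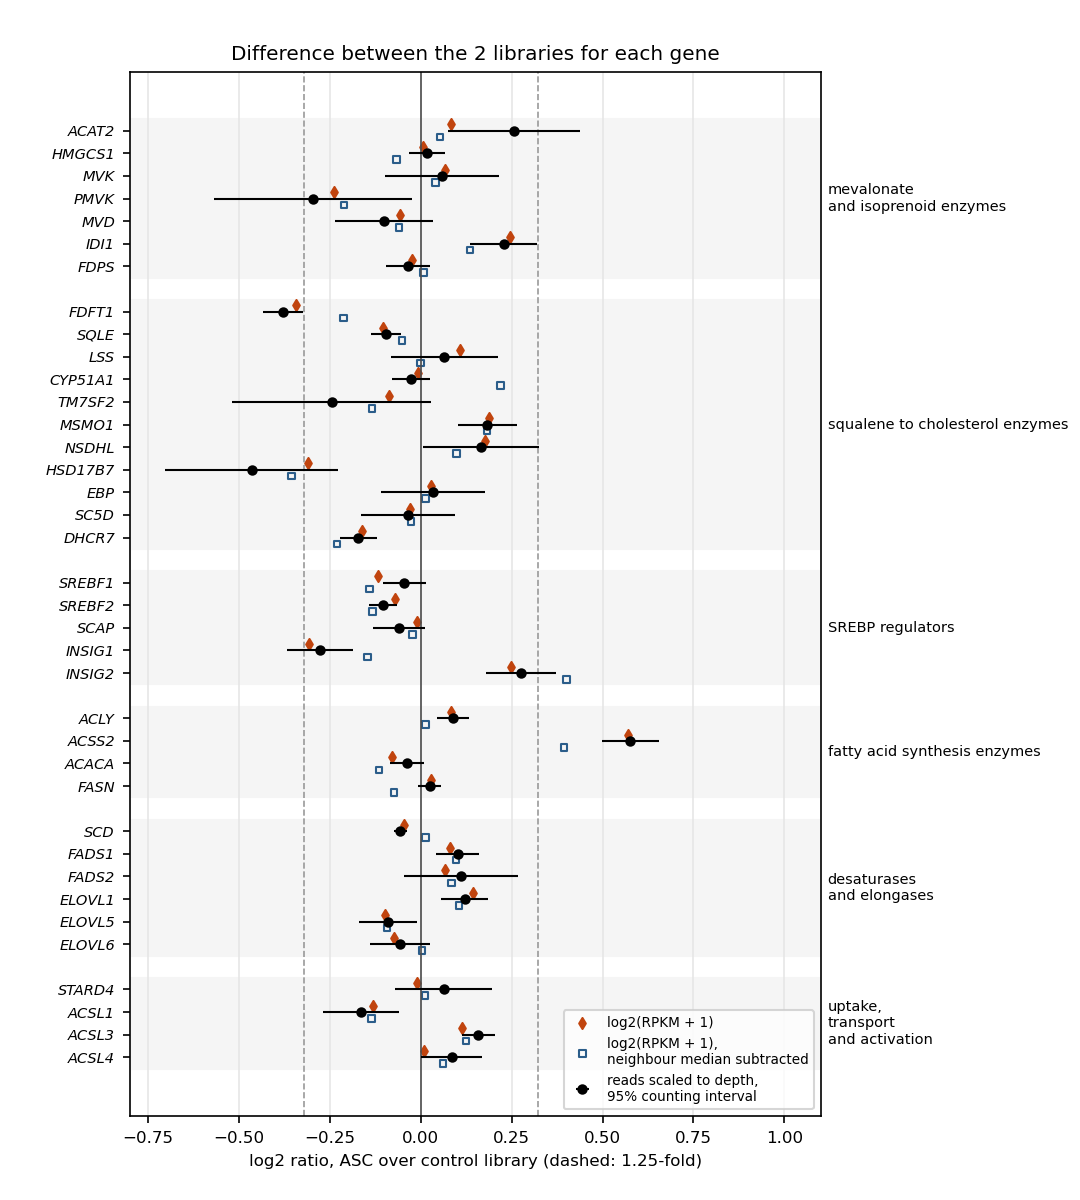
Log2 ratio of the ASC over the control library for each gene: depth-scaled reads with their 95% counting interval (black), RPKM plus 1 (diamonds) and the latter less the median of its 50 neighbouring genes (squares). ACSS2 lies furthest to the right at 0.57 and FDFT1 furthest to the left at -0.34 among the diamonds, and INSIG1 and INSIG2 lie on opposite sides of 0.

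Of the 5 regulators, the factors and their escort were close in both libraries while the INSIG genes differed in opposite directions. SREBF2, which encodes the SREBP that chiefly drives sterol genes, stood at 56.2 against 59.2 RPKM, and SREBF1, which encodes those that chiefly drive fatty acid genes, at 48.3 against 52.5 RPKM. SCAP stood at 25.2 against 25.4 RPKM. The ratio of SREBF2 to SREBF1 was 1.16 with ASC and 1.13 in the control.

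INSIG1, itself a target of the SREBP factors, stood at 20.8 against 25.9 RPKM, with 1781 against 2149 reads. Its log2 ratio was -0.31, and that of reads -0.28 (interval -0.37 to -0.19). INSIG2, whose protein has the same retention role but whose gene is less tied to sterol level, stood at 24.9 against 20.8 RPKM, with 1924 against 1583 reads. Its log2 ratio was 0.25, and that of reads 0.28 (interval 0.18 to 0.37). INSIG1 was thus the more abundant of the pair in the control library and INSIG2 in the ASC library, with an INSIG2 to INSIG1 ratio of 1.20 against 0.803. The nearest 50 genes had medians of -0.16 around INSIG1 on chromosome 7 and -0.15 around INSIG2 on chromosome 2. With these subtracted INSIG1 came to -0.15, and INSIG2 to 0.40, past the 25% mark.

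The promoters were read from RefSeq windows of GRCh38.p14, the assembly that hg38 names, 250 bases before to 50 after each start, which 33 of the 37 genes had (48 windows; ACAT2, FDFT1, SQLE and FASN were not matched). Each stretch below stops before the first listed transcript start of the gene that lies within its window. Some listed transcripts of MVK and ACSS2 start further upstream, so those stretches lie within the span of listed transcripts. SREBF2 is shown as the only lipid gene window with the full sterol regulatory element searched, MVK and SCD for repeated CCAAT boxes in a sterol and a fatty acid gene, and both windows of ACSS2, 1 for each main start, as the gene that differed most. Capitals mark a match on either strand to the sterol regulatory element, to its shorter form TCACNCCAC, to CCAAT, the letters of the CCAAT box, or to CACGTG, an E-box.
SREBF2 (chr22:41832855-41833078, plus strand): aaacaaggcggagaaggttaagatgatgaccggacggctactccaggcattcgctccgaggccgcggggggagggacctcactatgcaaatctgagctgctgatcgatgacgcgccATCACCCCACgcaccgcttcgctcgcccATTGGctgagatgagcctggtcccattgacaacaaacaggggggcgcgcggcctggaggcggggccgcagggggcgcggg
MVK (chr12:109573544-109573792, plus strand): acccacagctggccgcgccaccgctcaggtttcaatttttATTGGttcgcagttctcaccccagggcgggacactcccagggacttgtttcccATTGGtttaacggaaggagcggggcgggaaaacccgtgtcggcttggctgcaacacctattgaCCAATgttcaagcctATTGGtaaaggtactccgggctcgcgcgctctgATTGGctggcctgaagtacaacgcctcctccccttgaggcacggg
SCD (chr10:100346983-100347123, plus strand): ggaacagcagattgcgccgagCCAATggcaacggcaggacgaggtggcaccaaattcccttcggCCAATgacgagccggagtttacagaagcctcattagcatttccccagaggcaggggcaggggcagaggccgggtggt
ACSS2 (chr20:34874739-34874941, plus strand): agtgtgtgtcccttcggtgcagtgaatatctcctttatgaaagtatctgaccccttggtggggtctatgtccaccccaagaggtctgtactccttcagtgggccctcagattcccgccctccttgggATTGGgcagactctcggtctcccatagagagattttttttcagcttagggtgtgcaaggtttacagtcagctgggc
ACSS2, second start (chr20:34876362-34876434, plus strand): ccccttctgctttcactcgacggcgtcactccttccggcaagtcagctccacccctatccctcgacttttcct

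In the SREBF2 window the element ATCACCCCAC began 134 bases before the start site, and the match to TCACNCCAC lay within it. The ACSS2 stretch at the upstream start held 1 match, a CCAAT box, and that at the second start held 0. The full element was found in 1 of 48 lipid gene windows (2.08%) and in 0.154% of all 35116 windows. TCACNCCAC was found in 2 of 48 (SREBF2 and ACSL1), against 1.13% of all windows. CCAAT boxes, bound by NF-Y, a known partner of the SREBP factors, were in 29 of 48 lipid gene windows (60.4%), against 34.6% of all windows. MVK and NSDHL held the most in a single window, 5 each. The E-box CACGTG was in 6 of 48 windows (12.5%), against 7.26% of all windows and 9.51% of windows of compared genes. The same SC5D site was counted in 2 overlapping windows. Counted per gene, the E-box was in 5 of 33 lipid genes (15.2%), against 13.0% of compared genes. These matches describe letters of the reference in these windows only.

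ACSS2 had the largest difference of all 37 genes. It encodes the acetyl-CoA synthetase that makes acetyl-CoA from acetate in the cytosol and nucleus. The gene (ENSG00000131069.19, chromosome 20, 34872146 to 34927962 in hg38, plus strand) stood at 35.9 against 23.9 RPKM, 1.5-fold higher with ASC in plain RPKM, with 3201 against 2137 reads. Its log2 ratio was 0.57, and that of reads 0.58 (interval 0.50 to 0.66). The difference was seen in transcripts from both of its main starts. Those from the upstream start, at the promoter shown above, summed to 12.7 against 8.17 RPKM, and those from the second start to 18.5 against 12.7 RPKM, with log2 ratios of 0.58 and 0.51. The nearest 50 genes on chromosome 20 had a median log2 ratio of 0.18, and with this subtracted ACSS2 came to 0.39, still past the 25% mark. The main transcript from the second start, ENST00000360596.6, is coding (12.8 against 8.77 RPKM), while that from the upstream start, ENST00000481284.5, is annotated as a target of nonsense-mediated decay (12.4 against 7.95 RPKM).

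The other enzymes from acetyl-CoA to palmitate were close in both libraries. ACLY, which makes acetyl-CoA from citrate and so feeds the same pool as ACSS2, stood at 60.2 against 56.8 RPKM. The ratio of ACSS2 to ACLY was 0.596 with ASC and 0.420 in the control, so ACLY was the more abundant in both. The carboxylase gene ACACA stood at 28.3 against 29.9 RPKM. FASN, the fatty acid synthase, stood at 59.9 against 58.8 RPKM, from 16650 against 16292 reads, and its log2 ratio of reads was 0.03 (interval -0.01 to 0.06). These 2 enzymes carry out the synthesis itself, and neither passed the 25% mark.

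Desaturases and elongases summed to 430.2 against 431.4 RPKM, and none passed the 25% mark. SCD, the stearoyl-CoA desaturase that makes monounsaturated fatty acids, was the most abundant of the 37 genes, at 264.3 against 272.6 RPKM and at percentile 98.3 of all genes compared in the control library. Its log2 ratio was -0.04. ELOVL1, an elongase of very long saturated chains, had the largest ratio of the group, 0.15, at 80.9 against 73.1 RPKM. The polyunsaturated fatty acid desaturase genes FADS1 (31.7 against 29.9 RPKM) and FADS2 (8.11 against 7.69 RPKM) lay slightly above equality, and the elongase genes ELOVL5 (26.2 against 28.1 RPKM) and ELOVL6 (19.0 against 19.998 RPKM) slightly below.

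In the last group, STARD4, a carrier of cholesterol between membranes, stood at 9.36 against 9.44 RPKM. The ACSL genes encode ligases that activate long-chain fatty acids with coenzyme A. ACSL3 was the most abundant at 65.3 against 60.3 RPKM, ACSL4 stood at 13.6 against 13.5 RPKM, and ACSL1, with the largest size of difference in the group, at 11.2 against 12.3 RPKM (log2 ratio -0.13). None of the 4 passed the 25% mark, and their median log2 ratio was 0.00 to 2 decimals.

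The table is given per transcript, and gene totals that were level could hide a change in which transcript was used. A share shifted by at least 10 percentage points of gene RPKM was counted in genes of at least 5 RPKM in both libraries with more than 1 transcript. This held for 4 of 34 lipid genes (SC5D, ACACA, MVK and ACAT2), or 11.8%, near the 13.0% of all 8048 such genes. In 35 of the 37 genes the most abundant transcript was the same in both libraries, the exceptions being SC5D and TM7SF2. Shares rest on estimated reads of similar transcripts, whose assignment error is unknown.

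SC5D had the largest shift, and the only one of at least 20 points, which 0.994% of all genes had. Its 2 main transcripts share exons 2 to 4. They differ in the first exon and in the length of the last, which is 1638 bases in ENST00000264027.8 and 1577 in ENST00000392789.2. In ENST00000264027.8 the first exon spans chr11:121292453-121292816, and in ENST00000392789.2 it spans chr11:121292852-121293078, so the latter starts just downstream of the former exon. The upstream form held 23.1% of SC5D RPKM with ASC and 41.8% in the control (258.2 against 479.4 estimated reads), and the downstream form 58.0% against 31.3% (595.2 against 330.1 reads). Their log2 ratios of reads were -0.90 (interval -1.12 to -0.68) and 0.84 (interval 0.65 to 1.04). These intervals do not cover error in the assignment of reads between the 2 forms, which share most of their bases. Together the forms stood at 10.3 against 9.54 RPKM, so by these estimates the gene total hid opposite differences of both.

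The other shifts were smaller. In ACACA the transcript ENST00000614428.4 held 53.0% against 42.2% of the gene's RPKM, and ENST00000616317.4, which starts further upstream, 13.3% against 17.4%. In MVK the main coding form ENST00000228510.7 held 79.8% against 69.5%, while ENST00000447878.6, annotated as a target of nonsense-mediated decay, held 2.27% against 9.11% (13.04 against 49.98 reads). In ACAT2 the coding form ENST00000367048.4 held 62.1% against 53.4%, and the noncoding ENST00000467951.1 18.2% against 36.3%. For these 3 genes the main coding form thus held the larger share in the ASC library. TM7SF2, too low for the count, had the decay form ENST00000529601.5 at 3.87% against 23.6%, with 9.30 against 61.5 reads. Over all 37 genes, coding transcripts held a median of 90.6% against 90.8% of a gene's RPKM.

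SREBF1 is known to produce different forms of its factor from alternative starts. Transcripts from the upstream start held 46.9% against 41.8% of its RPKM (22.7 against 21.9 RPKM). Their log2 ratio of reads was 0.04 (interval -0.03 to 0.11). The 3 transcripts from a second start downstream held 5.12% against 6.35% (2.48 against 3.33 RPKM). Their log2 ratio of reads was -0.45 (interval -0.87 to -0.04), from 85.6 against 116.9 estimated reads. Transcripts of neither class held a larger share of SREBF1 RPKM than the upstream class in both libraries. Between the start classes the upstream was the larger in both libraries, but the order of starts over the whole gene is not settled.

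**Figure D4:**
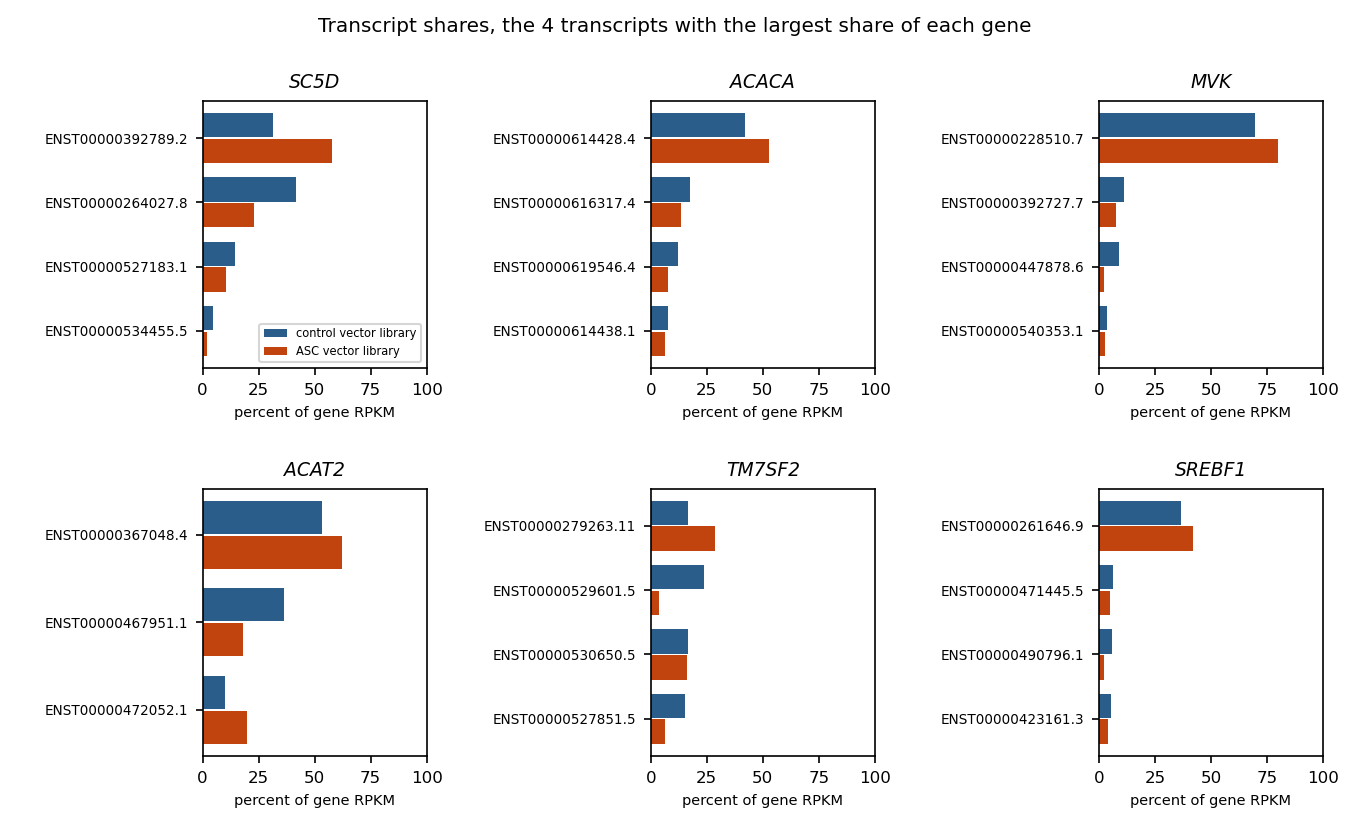
Share of the gene's RPKM held by each of its largest transcripts (up to 4), in percent, in the control (blue) and ASC (orange) libraries for 6 genes. In SC5D the 2 largest transcripts change order, from 31.3% and 41.8% in the control library to 58.0% and 23.1% with ASC.

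Further lipid genes, in 8 lists of 95 genes, held some larger differences, and their counts stand beside the same shares of all genes (8.88% higher, 8.72% lower and 52.0% above 0). In the list of further fatty acid synthesis genes 14 were compared and 11 had a log2 ratio above 0. The 25% mark was passed by 2, both higher with ASC, and the median was 0.17. ACSL5, a fatty acid ligase related to the 3 above, stood at 4.30 against 1.78 RPKM (501 against 203 reads), and its log2 ratio of reads was 1.30 (interval 1.06 to 1.54). ELOVL4, an elongase, stood at 5.29 against 3.90 RPKM. Of 15 compared genes of fatty acid oxidation, 2 passed the mark as higher and 2 as lower, with a median of 0.01. CPT1A, the carnitine transferase that admits fatty acids to mitochondria, stood at 11.7 against 5.98 RPKM (1902 against 904 reads, log2 ratio 0.86), while HADHA, of the oxidation complex itself, stood at 54.7 against 71.6 RPKM. With its 50 neighbouring genes subtracted, HADHA went from -0.38 to -0.18, short of the 25% mark.

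Uptake and efflux genes also held members past the 25% mark. Of 12 compared lipid uptake genes, none was higher and 4 were lower, with a median of -0.09. Among them FABP5, a fatty acid carrier, stood at 88.3 against 122.3 RPKM, and the transporter gene SLC27A3 at 2.47 against 3.61 RPKM. With neighbours subtracted FABP5 went from -0.46 to -0.26, short of the mark, and SLC27A3 stayed past it at -0.44. Of 6 compared efflux and LXR genes, 1 was higher and 1 lower. ABCA1, the cholesterol exporter, was low but stood at 1.16 against 0.389 RPKM (377 against 146 reads). Its log2 ratio of reads was 1.36 (interval 1.08 to 1.65), while NR1H3, which encodes an LXR receptor, stood at 3.97 against 5.38 RPKM. The log2 ratio of NR1H3 was -0.36 over all its transcripts. It was 0.034 between the highest transcript RPKM of each library, which need not come from the same transcript.

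With 1 added to each RPKM, the lists nearest to the SREBP system held no gene past the 25% mark. Of 9 genes of SREBP processing and degradation, 7 lay above 0, with a median of 0.10. ERLIN1, a membrane protein of the endoplasmic reticulum that takes part in protein degradation there, stood at 36.3 against 32.1 RPKM. Of 5 compared further sterol-responsive genes, TMEM97 stood at 20.1 against 24.6 RPKM and PCYT2 at 5.15 against 4.55 RPKM, with a list median of 0.01. In the 11 further isoprenoid genes, PGGT1B, a prenyl transferase subunit, stood at 6.504 against 5.01 RPKM. It lay just short of the mark, but was 1.30-fold higher with ASC in plain RPKM. Its reads differed less, at 458 against 425, with a log2 ratio of 0.10 (interval -0.09 to 0.30). DHDDS, of dolichol synthesis, stood at 11.8 against 9.53 RPKM. Of 10 compared storage genes, the lipases PNPLA2 and LIPA stood at 26.03 against 20.8 RPKM and 89.8 against 74.2 RPKM, with a list median of 0.00. PNPLA2 also lay just short of the mark, but was 1.2506-fold higher in plain RPKM, just past 25%.

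**Figure D5:**
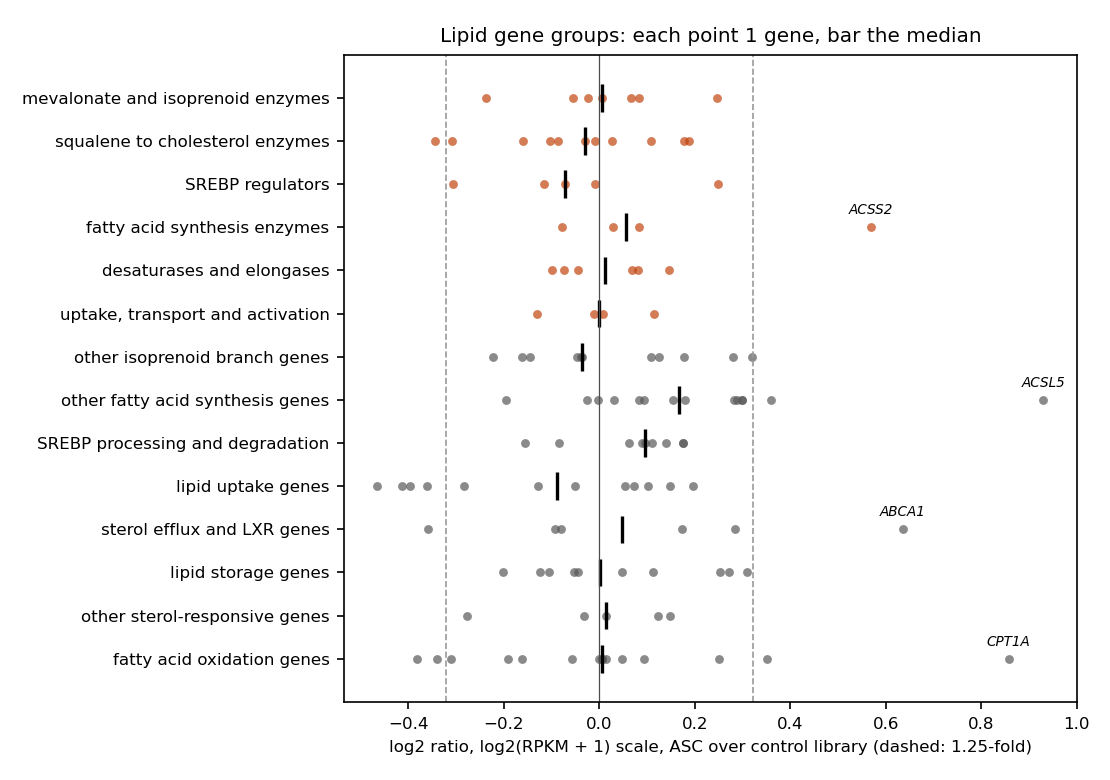
Log2 ratio (ASC over control library, RPKM plus 1) of each gene in the 6 groups of lipid synthesis genes (orange) and in 8 further lipid lists (grey), with the median of each as a bar and dashed lines at the 25% mark. Past 0.5 lie ACSS2, ACSL5, ABCA1 and CPT1A.

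The library kit does not mark strand, so reads of genes that overlap on opposite strands cannot be told apart. Of the 37 genes, 5 share exon bases with an opposite-strand gene of at least 1 RPKM: ACAT2 with SOD2 and TCP1, FADS1 and FADS2 with each other, MVK with MMAB, and SREBF1 with RAI1. For ACAT2, of low level beside TCP1 at 267.9 against 273.9 RPKM, 9.23% of exon bases are shared with TCP1 and 26.5% with SOD2. Its level and transcript shares are therefore uncertain. Estimated reads of 26 of the 37 genes summed to whole numbers within 0.05 in both libraries, while those of the other 11, HMGCS1, SQLE, CYP51A1, SREBF2 and FASN among them, did not.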

How the data were processed

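RNA from 2 SAS lines, 1 library per group, was sequenced after TRIzol extraction, poly(A) selection and an unstranded TruSeq RNA v2 preparation, per the labels' protocols. The authors deposited an estimated count and an RPKM value for each of 134092 transcripts. The build was hg38, per the submitters' processing notes, while for aligner, quantifier and annotation the sources used here name none. The identifiers matched GENCODE 29 (99.9% by identifier, 98.4% with version), and 284 of 285 gene names turned into dates were restored through them.

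Estimated counts and RPKM were summed per gene (24124 genes). Those reaching 1 RPKM in one library or both entered the comparison, made by log2 ratio with a pseudocount of 1 RPKM, and reads by their depth-scaled ratio with an exact 95% Clopper-Pearson interval that covers counting error only. No test was made, since each group has 1 library. The 37 genes and the lists were chosen with earlier results of these data known. Every one of the 37 was to be accounted for, with full values for those past the fold threshold and for the extremes of each group. Subtraction of the 50 nearest genes was added after seeing the data. The ratios and intervals were tested on simulated data. Promoter windows came from RefSeq. Python 3.11.15, pandas 2.3.3, numpy 2.4.6, scipy 1.17.1, matplotlib 3.10.9, R 4.3.3 and edgeR 4.0.16 (TMM factors only) were used.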

Additional observations from a re-analysis of the deposited data

How the results depend on the processing

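ACSS2 was the 1 gene past the 25% mark as higher under a pseudocount of 0.1 or 3 RPKM, no filter, a filter at 5 RPKM, centring, TMM scaling, median-of-ratios size factors and CPM. With each gene's highest transcript RPKM in each library (below, the highest transcript) there were 3 (ACSS2, INSIG2 and SC5D). The highest was picked separately in each library, so for SC5D ENST00000392789.2 with ASC was set against ENST00000264027.8 in the control. With neighbours subtracted there were 2 (ACSS2 and INSIG2). As lower, FDFT1 was joined by HSD17B7 (2 genes) with a pseudocount of 0.1 RPKM and with CPM. There were 0 with the highest transcript, and with neighbours subtracted HSD17B7 took the place of FDFT1. With 1 added to each RPKM there were 0 at 1.5-fold and 0 at 2-fold in either direction, though ACSS2 lies just past 1.5-fold in plain RPKM. The median of the fatty acid synthesis enzymes came to 0.23 with the highest transcript and -0.030 with neighbours subtracted, from 0.06. That of the uptake, transport and activation genes came to 0.10 with the highest transcript, and that of SREBP processing and degradation to -0.0093 with neighbours subtracted. NR1H3 turned from -0.36 to 0.034 with the highest transcript. A shift of 20 points in transcript share left 1 gene (SC5D). The cause of these changes was not tested, beyond what each setting changes by construction. Signs changed for 6 of the 37 genes with the highest transcript, 8 with neighbours subtracted, 2 with centring, and 1 each with CPM and TMM.

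No paired analysis was possible because each group has 1 library, and for the same reason no fit leaves out a library. The depth resolves small ratios for the abundant genes only, not for the low genes TM7SF2, PMVK, HSD17B7 and ACAT2. The spread between cultures, clones or library preparations is unknown.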
